A study of Danio rerio with 416 samples.

Results

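The 15 wild-type zebrafish cells with the most tbx16 messenger RNA were set against the 15 with the least, out of 47 wild-type cells kept and 416 single-cell samples in the series. The cells came from embryos at 50% epiboly of wild-type TLAB fish. The embryos were deyolked by hand and dissociated, and each cell was picked by hand into lysis buffer and made into a full-length SMART-seq2 library, a method that copies whole polyadenylated transcripts of 1 cell. A second genotype in the series, MZoep tz57, lacks the maternal and the zygotic supply of the Nodal co-receptor and is used here only for comparison. Levels are FPKM, which divides by transcript length and by the cell's mapped fragments. A gene counted as detected in a cell at 1 FPKM or more, and a cell was kept if at least 1500 genes were detected.

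At this stage the cells at the blastoderm margin, next to the yolk, begin to become mesoderm and endoderm, while cells towards the animal pole become ectoderm. Nodal, FGF, Wnt and BMP signals act at the margin, and tbx16, a T-box transcription factor known for its part in the movement and fate of trunk and tail mesoderm, is expressed there. The labels give no position for any cell, so tbx16 stands in for the margin side by choice. Because tbx16 chose the cells, its own values are given as a description only.

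tbx16 was between 143.21 and 295.41 FPKM (median 180.31) in the 15 cells highest in it, against 13.85 to 59.23 FPKM (median 47.83) in the 15 lowest. The last cell taken on the high side had 143.21 FPKM and the next one left out had 136.93, while on the low side the last cell taken had 59.23 and the next one left out 61.82. There was thus no gap in tbx16 at either limit, and every kept wild-type cell had tbx16 detected. The 17 cells between the sets ran from 61.82 to 136.93 FPKM.

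**Figure D1:**
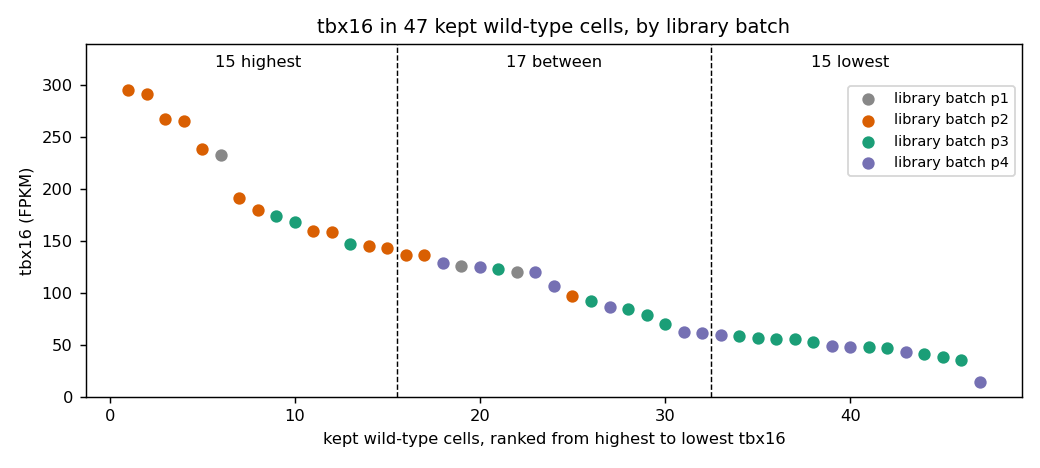
tbx16 level (FPKM) of each of the 47 kept wild-type cells, ranked from highest to lowest, coloured by library preparation batch; dashed lines bound the 15 highest and the 15 lowest cells. The 15 highest hold 11 cells of p2 and none of p4, and the 15 lowest hold 10 cells of p3, 5 of p4 and none of p1 or p2.

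The ranking followed the library preparation batch, p1 to p4, which the labels give for every cell. The cells highest in tbx16 were 1 of p1, 11 of p2 and 3 of p3, against 10 of p3 and 5 of p4 among the cells lowest in tbx16. Median tbx16 was 126.38 FPKM in p1, 169.94 in p2, 57.84 in p3 and 62.205 in p4 among kept wild-type cells. In MZoep cells the medians of the same 4 batches were 85.63, 115.2, 100.47 and 95.05 FPKM. Only p3 had cells in both wild-type sets, 3 against 10, so tbx16 level and batch cannot be told apart in most of the comparison. Most results are therefore given beside a second one, in which equal numbers of the highest and lowest cells were taken within each batch. These within-batch sets also held 15 cells each, with 1, 4, 6 and 4 of the 3, 14, 18 and 12 kept cells of p1 to p4 in both. Their tbx16 was 84.35 to 295.41 FPKM on the high side and 13.85 to 143.21 FPKM on the low side. They share 8 high and 10 low cells with the first pair of sets, and 1 cell of the first high set is among the low cells of its own batch.

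The labels name no embryo, so the wild-type cells are 1 sample, and no test across cells was made. Median genes detected were similar, 6900 in the cells highest in tbx16 and 6859 in the lowest. The ranges were 3667 to 7620 in the highest and 1877 to 8181 in the lowest. The cell with 3667 was of p2 and the cell with 1877 of p3, and neither is in the within-batch sets. Ribosomal protein genes took a median of 1.70% of the summed FPKM in the cells highest in tbx16 and 2.27% in the lowest, and mitochondrial genes 0.613% in the highest and 0.965% in the lowest. Both shares also differed by batch, with ribosomal protein at 1.63% in p2, 2.34% in p3 and 1.96% in p4. The 10th percentile of FPKM values above 0, which is lower in more deeply sequenced libraries, had a median of 1.13 FPKM in the cells highest in tbx16 and 0.61 FPKM in the lowest, and of 1.24, 0.57 and 0.695 FPKM in p2, p3 and p4. The part of batch and depth in the differences below was not tested.

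Of the 3 other markers given for the sets, noto was detected in more of the cells highest in tbx16. noto, a homeobox gene of the notochord lineage, was detected in 14 of 15 cells highest in tbx16 and in 8 of 15 lowest. As shares these are 93.3% (exact binomial 95% interval 68.1 to 99.8%) and 53.3% (26.6 to 78.7%), where the intervals cover counting error over cells only. sox2, a neural ectoderm gene, was detected in 3 cells of each set. Its mean was at least 2-fold higher in the cells highest in tbx16 through 1 cell of p2 with 44.53 FPKM, against a top low value of 12 FPKM. foxi1, a forkhead gene of ventral and animal ectoderm, was detected in 4 cells highest in tbx16 and 5 lowest, and 2 of those 5 held most of its signal. In the within-batch sets foxi1 was detected in 1 high and 6 low cells, and sox2 in 3 high and 5 low cells. Detection of noto was closer between the within-batch sets than between the ranked sets, with means of 139.8 FPKM in the high and 13.6 FPKM in the low cells. Since sox2 and foxi1 did not separate the ranked sets by detection, the cells are called by their tbx16 level, and the lower set is not called animal.

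Over all genes, 6875 were compared: those detected in at least 3 cells of 1 set with a mean of at least 5 FPKM in 1 set. A low gene can pass this filter through its higher set alone, so list counts favour genes apart between the sets. The ratio used throughout is log2 of the mean FPKM plus 1, cells highest over cells lowest in tbx16, which understates differences of low genes. Of the compared genes, 986 (14.3%) were at least 2-fold higher and 608 (8.84%) at least 2-fold lower in the cells highest in tbx16, and the median gene stood at 0.12. In the within-batch sets, 6797 genes were compared, of which 538 (7.92%) were at least 2-fold higher, 489 (7.19%) at least 2-fold lower, and the median was -0.02. Every list count below is to be read beside these shares of all compared genes for the same pair of sets. Of the 986 higher genes, 77.8% were above 0 in the within-batch sets, against 47% of all compared genes, and 26.7% were still at least 2-fold higher. Of the 608 lower genes, 88.0% were below 0 there and 35.7% were still at least 2-fold lower. The within-batch sets share cells with the first pair, so these shares are not independent of it. Among the cells of p3 alone, 3 against 10, 17% of 5994 compared genes were at least 2-fold higher and 23.5% at least 2-fold lower. Between batches of MZoep cells, p2 over p3 and p4 together, 2.31% of compared genes were at least 2-fold higher and 0.375% lower. These shares also reflect means over more cells, 80 of p2, 61 of p3 and 25 of p4, so their size is not comparable with that of the wild-type shares. Of the 986 genes higher with tbx16 in wild type, 77.4% were above 0 in that batch comparison, against 70% of all compared genes. Of the 608 lower genes 58.6% were above 0 and 41.4% below 0 there, beside the same 70% above 0 of all compared genes. Lower genes were thus above 0 less often than all compared genes between these MZoep batches. Among the 17 wild-type cells between the sets, the same batch comparison had 3 cells of p2, 5 of p3 and 7 of p4. There 63.4% of the higher genes were above 0, against 51.4% of all compared genes, and 33.7% were at least 2-fold higher. Of the lower genes 67.8% were below 0 there and 40.8% were at least 2-fold lower. The part of batch was not tested.

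Genes of the margin and of posterior mesoderm were higher with tbx16 in both pairs of sets. Of 27 listed margin and mesoderm genes in the table, 15 were compared, 10 were at least 2-fold higher and 1 at least 2-fold lower, and the median log2 ratio was 1.26. Within batches 18 passed the filter, 12 were at least 2-fold higher, none was 2-fold lower, and the median was 2.32. That median was 3.0 within p2, 1.5 within p3 and 2.46 within p4. Without the 2 within-batch high cells with the most Nodal target signal, 7 of 15 compared members were at least 2-fold higher and the median was 1.0. Among the cells of p3 in the ranked sets the median of the list was 0.60.

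cdx4, a caudal-type homeobox gene of the posterior body, separated the ranked sets by detection, and the within-batch sets less so. It ran from 0 to 106.5 FPKM (median 6.05) in the cells highest in tbx16 and from 0 to 5.53 FPKM (median 0) in the lowest. It was detected in 11 of 15 high and 1 of 15 low cells, which is 73.3% (44.9 to 92.2%) and 6.67% (0.169 to 31.9%). Within batches it was detected in 8 of 15 high and 2 of 15 low cells, 53.3% (26.6 to 78.7%) and 13.3% (1.66 to 40.5%). The means were 19.6 FPKM in the high and 0.447 FPKM in the low cells, a log2 ratio of 3.83, and within batches the ratio was 4.65 in p2, 3.68 in p3 and 3.10 in p4. eve1, an even-skipped homeobox gene of ventral and posterior mesoderm, averaged 54.1 FPKM in the cells highest in tbx16 and 5.54 FPKM in the lowest (log2 ratio 3.08). Its medians were 21.7 FPKM in the high and 0 FPKM in the low cells, and the sets overlapped between 0 and 34.2 FPKM. Within batches its ratio was 5.20 in p2, 3.18 in p3 and 5.56 in p4.

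tbxta, the Brachyury orthologue that marks the whole margin, ran from 0 to 378 FPKM (median 44.8) in the cells highest in tbx16 and from 0 to 102.73 FPKM (median 2.29) in the lowest. The sets overlapped up to 102.73 FPKM, since 2 cells highest in tbx16 had no tbxta and 2 cells of p3 in the lowest set had 102.73 and 76.93 FPKM. The cell with 102.73 FPKM tbxta had only 1877 genes detected, and it also set the low-side eve1 limit of 34.2 FPKM. The log2 ratio was 2.27, and within batches 3.20 in p2, 5.21 in p3 and 2.43 in p4. mixl1, a paired-type homeobox gene of mesendoderm, averaged 45.7 FPKM in the cells highest in tbx16 and 4.91 FPKM in the lowest (log2 ratio 2.98), and its within-batch ratio was 3.31. One cell of p2 supplied the highest value, 350 FPKM, and without the highest cell of each set the ratio was 2.69. The second highest value, 162.77 FPKM, came from the p2 cell with 3667 genes detected.

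**Figure D2:**
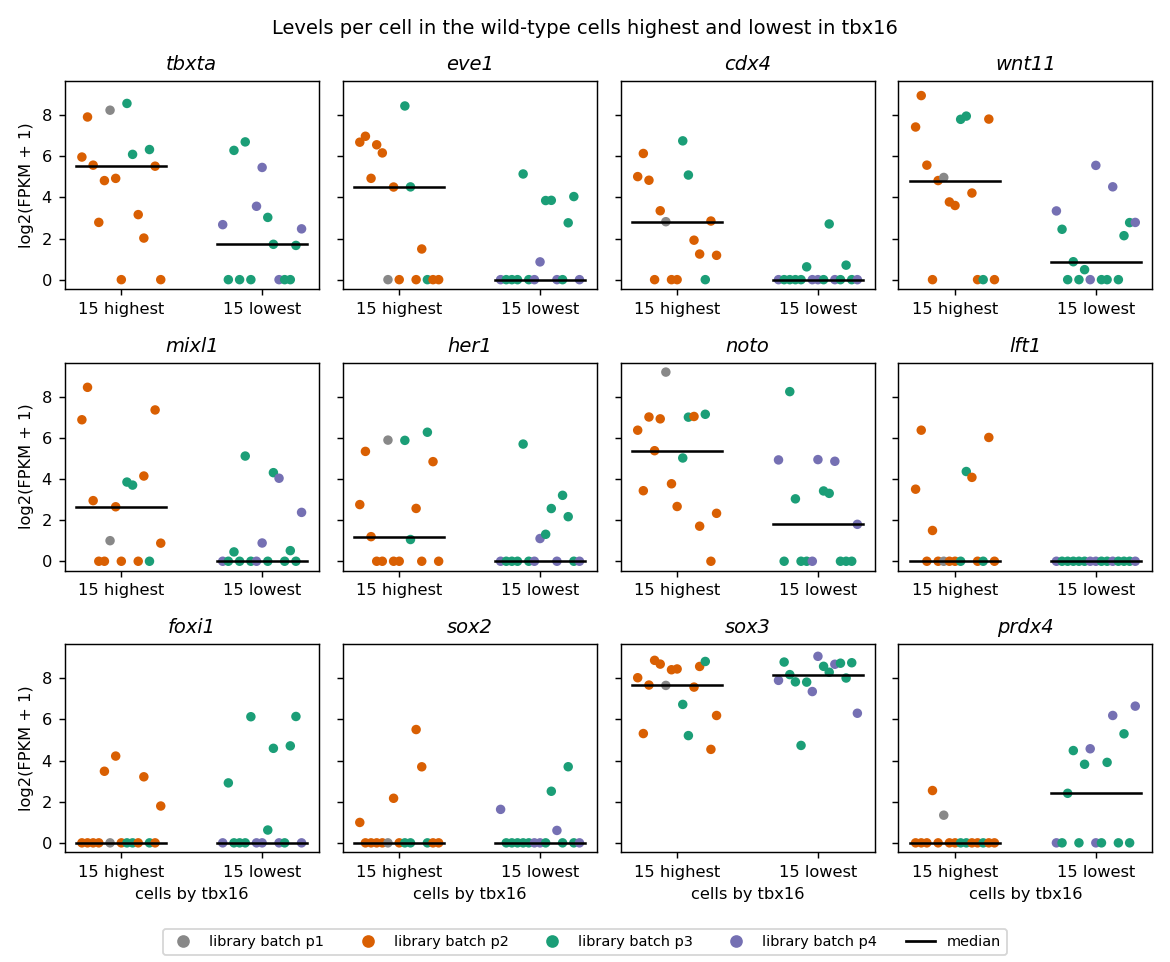
Level of 12 genes, log2(FPKM + 1), in each of the 15 wild-type cells highest in tbx16 (left) and each of the 15 lowest (right), coloured by library preparation batch; within a set cells run from higher to lower tbx16, and black lines are medians. cdx4 is detected in 11 high and 1 low cells, lft1 in 6 high and 0 low cells, and sox3 overlaps throughout.

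wnt11 and wnt5b, Wnt ligands known for their part in convergence and extension movements, were higher with tbx16. wnt11 ran from 0 to 493 FPKM (median 27.2) in the cells highest in tbx16 and from 0 to 46.02 FPKM (median 0.83) in the lowest, a log2 ratio of 3.75. Of the high cells, 6 lay above every low cell, 4 of p2 and 2 of p3. Its within-batch ratio was 4.73 in p2, 5.17 in p3 and 1.23 in p4. wnt5b averaged 10.1 FPKM in the cells highest in tbx16 and 1.98 FPKM in the lowest (log2 ratio 1.89, within batches 2.65). wnt8a, a ligand of the canonical pathway at the ventrolateral margin, had a ratio of 1.15, but -1.96 among the cells of p3 alone. Of 10 compared Wnt pathway genes, 4 were at least 2-fold higher and none lower (median 0.52), beside 14.3% higher of all compared genes. Within batches 7 of 12 were higher (median 1.17), beside 7.92% of all compared genes. Without the filter on low genes the Wnt median was 0.06 between the ranked sets and 1.02 within batches.

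Notch ligands and her genes that passed the filter were also higher with tbx16, in part through genes shared with the margin list. Gene lists overlap, and her1 and her7 are in both this list and the margin and mesoderm list. Of 8 compared genes of this list, 4 were at least 2-fold higher and none lower (median 1.1), and within batches the counts were again 4 and 0 of 8 (median 1.01). Without the filter on low genes the median of 13 genes was 0.77 between the ranked sets and 0.34 within batches. her7 and her1, oscillating repressors of the later segmentation clock, had log2 ratios of 1.38 and 1.76. her7 was detected in 14 cells highest in tbx16 and 11 lowest, with medians of 34.2 FPKM in the high and 11 FPKM in the low cells. Within batches her7 stood at 1.94 and her1 at 3.21. dld, a Delta ligand, was detected in 11 high and 3 low cells (log2 ratio 2.21, within batches 2.15), and dlc, another Delta ligand, in 11 high and 8 low cells (1.32, within batches 1.06).

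Other members of the margin list did not keep 1 direction. mespab, a basic helix-loop-helix gene of paraxial mesoderm, had a log2 ratio of 1.26 that rested on 4 high cells and 1 low cell, and it stood at -0.49 in p3 alone. That low cell, with 48.15 FPKM mespab, was the one with 1877 genes detected. The top high cell, with 73.22 FPKM mespab, was the one with 3667 genes detected. eomesa, a T-box gene, stood at 1.62 between the ranked sets and at -0.04 within batches. aplnrb, an apelin receptor of mesendoderm, was the only member at least 2-fold lower (-1.33), with 1 low cell at 104.5 FPKM. Within batches aplnrb stood at 1.17 in the opposite direction. fscn1a, an actin-bundling protein, was detected in all 15 cells of both sets, with medians of 66.9 FPKM in the cells highest in tbx16 and 19.7 FPKM in the lowest (log2 ratio 1.24, within batches 0.62).

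Dorsal margin genes were higher with tbx16 on average, but a few cells carried them. Of 7 compared genes, 5 were at least 2-fold higher and 1 at least 2-fold lower (median 1.73). The single p1 cell of the high set had the most noto (585.44 FPKM), chrd (309.87 FPKM), foxa3 (167.46 FPKM) and admp (549.37 FPKM) of that set. Without it, 2 of 6 were at least 2-fold higher, 1 was lower, and the median was 0.31. Among the p3 cells of the ranked sets the list median was below 0, at -1.11, and with the 10 highest against the 10 lowest cells it was 3.43. noto itself ran from 0 to 585 FPKM (median 40.5) in the cells highest in tbx16 and from 0 to 303 FPKM (median 2.47) in the lowest, a log2 ratio of 1.73 and 1.07 without that cell. The top low cell, of p3, had 302.72 FPKM noto beside 76.93 FPKM tbxta and 164.61 FPKM chrd. chrd, a secreted BMP antagonist of the organizer, averaged 35.8 FPKM in the cells highest in tbx16 and 14.8 FPKM in the lowest (log2 ratio 1.22), but 0.12 without the p1 cell and -3.96 within p3 alone.

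Within batches each of 7 compared dorsal genes was past 2-fold on the high side (median 3.22), although their high values again sat in few cells. Without the filter on low genes 11 of 12 were past 2-fold on that side (median 3.17). noto averaged 139.8 FPKM in the high and 13.6 FPKM in the low within-batch cells (log2 ratio 3.27), and it was higher in p2 (1.19), p3 (4.22) and p4 (3.64). gsc, an organizer homeobox gene, had a ratio of 3.18, and 447.32 FPKM of it came from 1 p4 cell. Without that cell gsc stood at 0.55, chrd at 2.46 and foxa3, a forkhead gene of the axial midline, at 3.33. The high means of chrd and foxa3 were then 29.1 and 15.7 FPKM. The p1 cell, with 309.87 FPKM chrd and 167.46 FPKM foxa3, was still among those cells and held most of both. Ratios without both cells were not computed. lhx1a, a LIM homeobox gene of the dorsal margin, stood at -0.11 between the ranked sets and at 3.15 within batches. The low-set cell with 1877 genes detected had 75.74 FPKM of it and is not in the within-batch sets. admp, a BMP-like ligand of the dorsal side, had a within-batch ratio of 1.65 but -0.40 without the highest cell of each set. dkk1b, a secreted Wnt antagonist, stood at -1.16 between the ranked sets and at 3.39 within batches, where it was detected in 2 cells of each set.

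**Figure D3:**
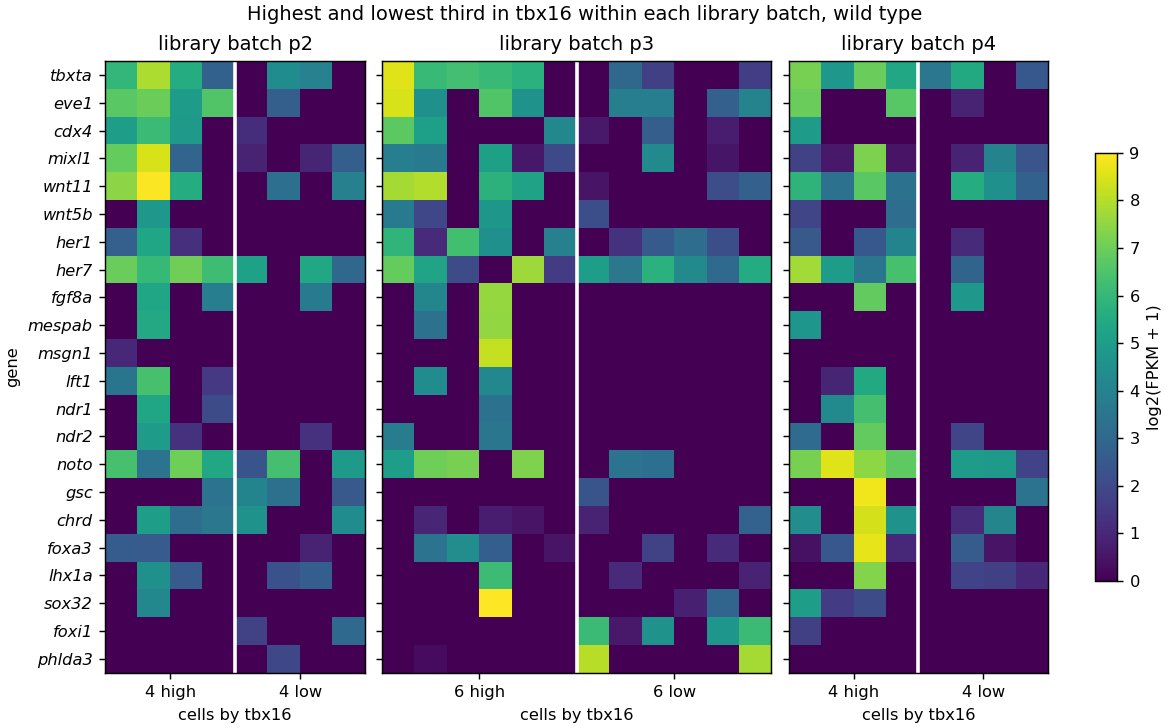
Level of 22 genes (rows), log2(FPKM + 1) as colour, in the highest (left of the white line) and lowest (right) cells by tbx16 within batches p2, p3 and p4; p1, with 1 cell a side, is not drawn. tbxta, eve1 and wnt11 fill most high columns, whereas gsc, foxa3 and sox32 peak in single columns and phlda3 in 2 low columns of p3.

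Nodal ligands and Nodal targets were higher with tbx16, and receptors and transducers of the pathway mostly lay within 2-fold. lft1, a secreted Nodal antagonist and direct target, was detected in 6 of 15 cells highest in tbx16, at up to 81.8 FPKM, and was listed at 0 in all 15 lowest. A share of 0 of 15 cells allows up to about 20% by a rule of 3 counts over 15 cells, an approximation and not the exact interval. Of those 6 cells 5 were of p2, and 1 of these, with 63.81 FPKM lft1, was the cell with 3667 genes detected. Within batches lft1 was again detected in 6 high cells, spread over p2, p3 and p4, and in no low cell. ndr1 and ndr2, the Nodal ligands, were detected in 3 and 4 cells highest in tbx16 and in 0 and 1 lowest, and within batches in 5 and 7 high and 0 and 2 low cells. Of 12 compared Nodal targets 9 were at least 2-fold higher and 1 lower (median 1.68), and within batches 20 of 21 were higher and none lower (median 3.33). Some of these targets passed the filter only through a few high cells. Over all 26 listed targets without the filter the median was 1.25 between the ranked sets. Within batches it was 3.24, with 23 of the 26 at least 2-fold higher. Without the 2 within-batch high cells with the most Nodal target signal, 11 targets passed the filter, 7 were higher, and the median was 2.56. Of 6 compared Nodal receptors and transducers 1 was at least 2-fold higher and none lower (median 0.41), and within batches none of 6 was 2-fold apart (median 0.37).

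FGF pathway genes did not move together, although no compared member was at least 2-fold lower in either pair of sets. spry2 and dusp6, inhibitors that FGF signalling switches on, had log2 ratios of 1.69 and 1.08, and within batches 0.61 and 1.41. dusp4, of the same family as dusp6, averaged 2.92 FPKM in the cells highest in tbx16 and 5.55 FPKM in the lowest (log2 ratio -0.74), but stood at 2.25 within batches. spry4, a relative of spry2, averaged 4.48 FPKM in the high and 4.16 FPKM in the low cells, under the filter on low genes. Of 9 compared FGF pathway genes, 4 were at least 2-fold higher and none lower (median 0.74). Within batches 4 of 11 were higher and the median was -0.09. Without the filter on low genes the median of 15 genes was 1.0 between the ranked sets. Within batches it was then 0.61, with 7 of the 15 at least 2-fold higher. cdh2, N-cadherin, was detected in 10 cells highest in tbx16 and 6 lowest (log2 ratio 1.86, within batches 1.33), and -0.04 in p3 alone.

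BMP pathway genes showed no common direction. Of 15 compared, 4 were at least 2-fold higher and 1 lower (median 0.36), and within batches 3 of 14 were higher and 1 lower (median 0.26). vent, a ventral homeobox repressor downstream of BMP, was detected in 11 cells of each set, with medians of 23.6 FPKM in the cells highest in tbx16 and 6.99 FPKM in the lowest. Its log2 ratio was 1.53, and within batches 2.42 in p2, 1.72 in p3 and 2.98 in p4. bmp4 stood at 1.23 and 0.58 within batches, and the ligand bmp7a at 1.20 but -0.55 within batches.

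Neural ectoderm genes that passed the filter leaned higher with tbx16, whereas the listed genes without the filter did not. sox3, a SoxB1 factor of the early neural ectoderm, was detected in all 15 cells of both sets, with medians of 202.8 FPKM in the cells highest in tbx16 and 288.7 FPKM in the lowest (log2 ratio -0.33). sox19a, of the same family, stood at 0.05. Of 8 compared neural genes, 3 were at least 2-fold higher with tbx16 and none lower (median 0.38), and within batches 5 of 9 were higher (median 1.02). Without the filter on low genes the neural median was 0.05 between the ranked sets and 0.06 within batches. Among the higher ones between the ranked sets were zic2a (3.20), a zinc-finger factor, and foxd5 (1.49), a forkhead factor. zic2a was detected in 4 cells highest in tbx16 and in none of the lowest, where its top value was 0.98 FPKM.

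Of 7 compared non-neural ectoderm genes, none was at least 2-fold higher and 2 were lower (median 0.21), beside 8.84% lower of all compared genes. Within batches 1 of 5 was lower and none higher (median 0.22). foxi1 averaged 2.57 FPKM in the cells highest in tbx16 and 12.95 FPKM in the lowest (log2 ratio -1.97). Its top 2 values, 69.7 and 69.11 FPKM, came from 2 low cells of p3, and without those cells the ratio was -0.56. In p3 alone it stood at -4.35, without p3 at 2.07, and within batches at -3.62. Within batches without the same 2 cells it averaged 0.15 FPKM in the high and 4.52 FPKM in the low cells, a ratio of -2.26. gata2a, a GATA factor of ventral ectoderm, was the other lower gene (-1.08, within batches -0.63).

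A hand-picked cell could also be of the enveloping layer, the outer epithelium, and some genes of that layer were higher with tbx16 between the ranked sets. Of 13 compared, 4 were at least 2-fold higher and 1 lower (median 0.76). The median was 0.46 without the highest cell of each set and -0.06 with the 10 highest against the 10 lowest cells. Their summed level per cell was 76.2 to 1655 FPKM (median 291) in the cells highest in tbx16 and 66.4 to 528 FPKM (median 175.32) in the lowest. The defining keratins krt4, krt5 and krt8 stood at 0.59, 0.92 and 0.76. krt18, detected in all 15 cells of both sets, averaged 145.4 FPKM in the cells highest in tbx16 and 34.7 FPKM in the lowest (log2 ratio 2.04), with 1 cell at 732 FPKM. That cell was the p2 cell with 3667 genes detected. cyt1, another keratin, stood at 2.60, detected in 6 high and 3 low cells, and anxa1a at -1.17. Within batches 3 of 11 were higher, 1 was lower and the median was 0.32. The part of enveloping layer cells in the other differences was not tested. Of the yolk syncytial layer list only apoeb was compared (-0.21) and apoa2 and apoa1b were listed at 0 in both sets, and of the germ cell list 5 genes, none of them 2-fold apart.

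Genes of the p53 and cell death programme were lower in the cells highest in tbx16, and 2 cells of the other set carried the difference. Of 8 compared, none was at least 2-fold higher and 4 were at least 2-fold lower (median -0.75). These were mdm2 (-2.25), the p53 inhibitor, cdkn1a (-2.01), a cell-cycle inhibitor, casp8 (-2.07), an initiator caspase, and foxo3b (-1.19). phlda3, a p53 target, was at 263.56 and 222.29 FPKM in 2 low cells of p3 and at 0 in the other 13 low cells. The same 2 cells had 129.96 and 229.88 FPKM mdm2, and they are the 2 cells with the most foxi1. Without them none of 4 compared genes was 2-fold apart (median 0.45), mdm2 stood at 0.23 and casp8 at 0.37. Within batches 5 of 9 were at least 2-fold lower (median -1.66), and without the same 2 cells none of 5 was 2-fold apart (median -0.02). The margin and mesoderm counts without them were 9 higher and 0 lower of 15, with the median still at 1.26.

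The 15 genes furthest apart in each direction, by the ratio without the highest cell of each set and under the rule given with the processing, were mostly outside the margin and pathway lists. Of the higher ones 5 were still at least 2-fold higher within batches, beside 26.7% of all 986 higher genes. The higher ones were led by wnt11 and cdx4 and also held eve1, and further included hadhaa, a mitochondrial beta-oxidation enzyme, dcaf11, a ubiquitin ligase adaptor, psen2, a gamma-secretase subunit, and mettl9, a methyltransferase. si:dkey-23a13.15 ran from 3.45 to 153.1 FPKM (median 84.3) in the cells highest in tbx16 and from 0 to 52.2 FPKM (median 6.35) in the lowest. Its log2 ratio was 2.85, and within batches 0.05. Likewise hadhaa stood at 2.73 and -0.48, gatad1 at 2.21 and 0.16, and dcaf11 at 2.96 and 0.31. mettl9 kept 2.01 and psen2 1.26 within batches, beside wnt11 at 3.62, cdx4 at 3.87 and eve1 at 3.88.

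Of the 15 lower genes, 10 were still at least 2-fold lower within batches, beside 35.7% of all 608 lower genes. The rule that named these genes also asked for 1 sign in p3, whose cells are in part those of the within-batch sets. prdx4, a peroxiredoxin of the endoplasmic reticulum, was detected in 2 of 15 cells highest in tbx16, at up to 4.83 FPKM, and in 8 of 15 lowest, at up to 99.2 FPKM (median 4.31). Its log2 ratio was -3.81, and within batches -1.97 in p2, -3.58 in p3 and -4.09 in p4. ndufa5, a subunit of respiratory complex I, was detected in 5 high and 12 low cells, with a ratio of -3.19 and -3.15 within batches. hint1, a nucleotide hydrolase, had medians of 0 FPKM in the cells highest in tbx16 and 47.7 FPKM in the lowest (-2.60, within batches -1.83). pelo, a ribosome rescue factor, had medians of 1.83 FPKM in the high and 29.8 FPKM in the low cells (-2.32, within batches -1.45). mettl1, a transfer RNA methyltransferase, stood at -3.26 and -1.34, and tatdn1 at -2.30 and -1.99. Ribosomal protein genes as a list stood at a median of -0.43 between the ranked sets and -0.07 within batches, and mitochondrial genes at -0.42 and -0.01. Housekeeping genes had medians of -0.09 and -0.06.

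**Figure D4:**
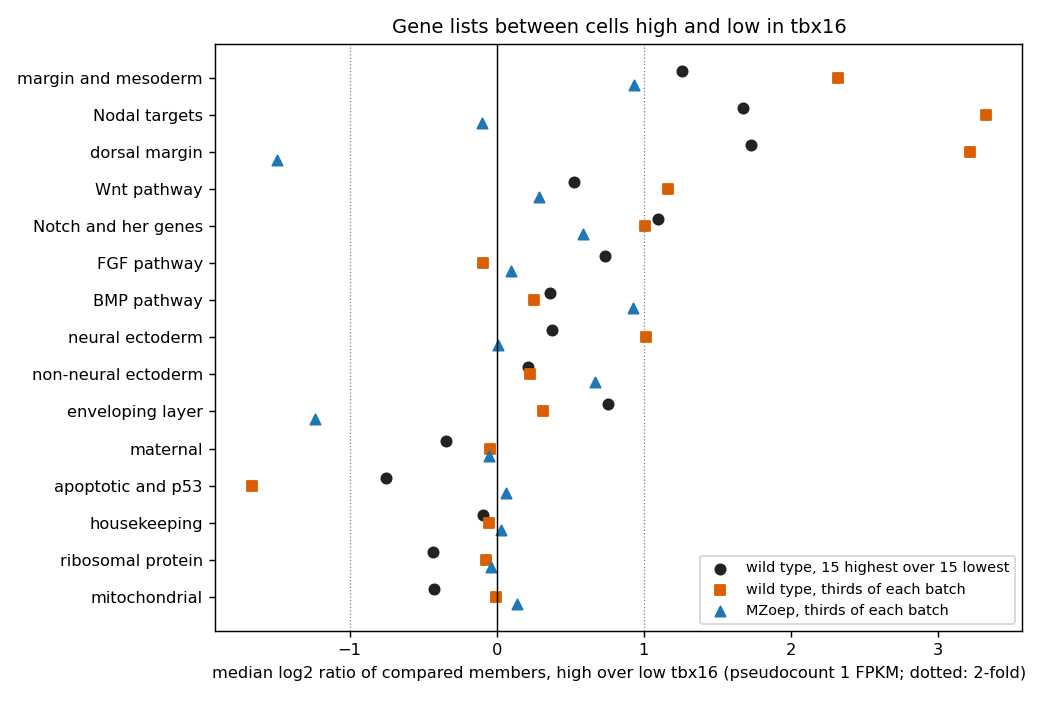
Median log2 ratio (horizontal axis, pseudocount 1 FPKM) of the compared genes of 15 lists between wild-type cells highest and lowest in tbx16 (circles), wild-type cells taken within each batch (squares) and MZoep cells taken likewise (triangles); dotted lines are 2-fold. Margin, Nodal target and dorsal margin lists lie above 1 in both wild-type comparisons, and the dorsal margin list lies at -1.5 in MZoep.

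The same within-batch ranking by tbx16 in MZoep cells, which share no cell with the wild-type sets, gave 80 high and 80 low cells. Of 6862 compared genes, 0.802% were at least 2-fold higher and 1.62% at least 2-fold lower, shares that also reflect means over more cells. Of 12 compared margin and mesoderm genes 6 were higher and none lower (median 0.94). They were tbxta (2.75), eve1 (2.64), mixl1 (2.57), cdx4 (2.14), her1 (1.16) and her7 (1.06), all of which were also higher in wild type. tbxta averaged 69.3 FPKM in the high and 9.46 FPKM in the low MZoep cells, and its ratio was 2.18 to 3.0 in the 4 batches. Taken as a whole, the higher genes called in wild type were above 0 in MZoep no more often than all compared genes. Of the 986 higher genes 60.3% were above 0 in MZoep, against 62.7% of all compared genes. Of the 608 lower genes 45.1% were below 0 and 54.9% above 0, a smaller share above 0 than the 62.7% of all compared genes. Of the named lower genes prdx4 stood at -0.23, ndufa5 at 0.31 and pelo at 0.12 in MZoep.

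Of 5 compared dorsal margin genes in MZoep, 3 were at least 2-fold lower with tbx16 and 1 higher (median -1.5). In MZoep cells chrd averaged 2.71 FPKM in the high and 18.2 FPKM in the low cells (log2 ratio -2.37, below 0 in each of the 4 batches). Its wild-type ratio within batches was 3.22, but 0.25 in p2 and -0.69 in p3. gsc stood at -1.5, admp at -2.05 and noto at -0.45 in MZoep, against 3.18, 1.65 and 3.27 in wild type. lft1 was detected in 2 of 80 high and 3 of 80 low MZoep cells. Of 17 compared BMP pathway genes 7 were at least 2-fold higher with tbx16 in MZoep and 1 lower (median 0.93), where bmp4 stood at 1.59 and bmp7a at 1.18. Of 16 enveloping layer genes 15 were at least 2-fold lower in the high MZoep cells (median -1.23), krt18 with 103.7 FPKM in the high and 277 FPKM in the low cells. The krt18 ratio was -2.47 in p1 and 0.01 in p4. These differences between the genotypes were not tested.

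**Figure D5:**
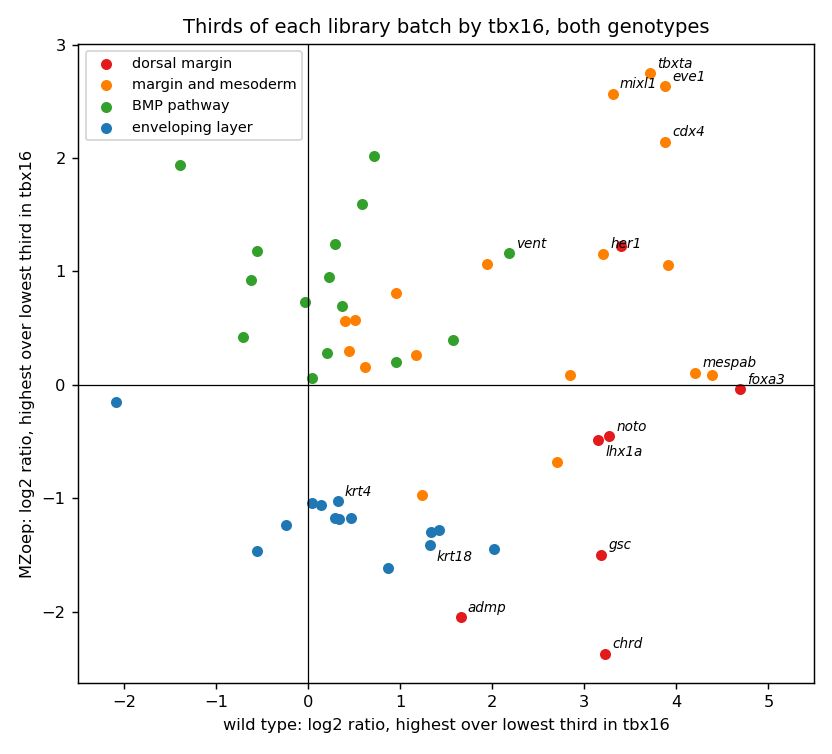
Log2 ratio (pseudocount 1 FPKM) of the highest over the lowest cells by tbx16 taken within each batch, wild type (horizontal) against MZoep (vertical), for genes of 4 lists with a mean of at least 5 FPKM in either genotype; a gene in 2 lists is drawn under the first in the legend. tbxta, eve1, cdx4 and mixl1 lie high on both axes, chrd, gsc and admp lie above 0 in wild type and below 0 in MZoep.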

How the data were processed

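Wild-type TLAB cells with full-length libraries were taken from the authors' deposited table of FPKM. The submitters' processing notes name Bowtie2, RSEM and build GRCz10; versions and annotation are not stated, and sequencing depth is unknown. FPKM values are relative, so a change in abundant genes moves all others. The 88 MZoep cells with molecular identifiers were not analysed here. Cells with at least 1500 of 25208 rows at FPKM 1 or more were ranked by tbx16. The labels give 1 library preparation batch tag per cell, and per the series text all samples were sequenced in one batch. Ratios, counts and exact (Clopper-Pearson) intervals were computed with Python 3.11.15, pandas 2.3.3, numpy 2.4.6 and scipy 1.17.1. No doublet caller and no clustering was run. A gene at 0 in every cell of a set enters list medians through the pseudocount of 1 FPKM.

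The text names the given markers, members of the gene lists, and the 15 highest and 15 lowest genes by the ratio without the highest cell of each set. These were detected in at least 8 cells of the higher set, at least 2-fold apart with and without that cell, and of 1 sign in each batch with at least 2 cells of both sets, which 459 higher and 282 lower genes met. The cells, the 23 gene lists and the comparison were chosen with earlier results of these data known. Rows are given in the table by symbol; tbxta is row TA and chrd is row CHD, matched through RefSeq synonyms of assembly GRCz12tu.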

Additional observations from a re-analysis of the deposited data

How the results depend on the processing

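The shares of compared genes at least 2-fold higher (14.3%) and lower (8.84%) and the list medians moved with several settings. With a pseudocount of 10 FPKM the shares were 1.82% and 1.08%, with margin and dorsal margin medians of 0.72 and 0.88. Without a filter on low genes they were 11.2% (2133 genes) and 7.81% (1493 genes), dorsal 0.93, and without a filter on cells 35.8% and 3.7%, neural 1.03, enveloping layer 1.13. With the 10 highest rows left out and each cell rescaled to the former sum the shares were 18.9% (1840) and 12.8% (1251) of 9758 genes. Ranking within batches gave 7.92% higher (538) and a neural median of 1.02, and ranking by tbxta 8.1% higher (547). The tbxta ranking kept 8 of the 15 cells highest in tbx16 and 8 of the 15 lowest on their side. It put 2 of the cells lowest in tbx16 in its high set and 3 of the highest in its low set. Lower genes made up 18.8% without p2, 15.7% without p3 and 23.5% in p3 alone, where the enveloping layer median was 1.31. The margin median was 0.67 with 20 cells a side. The dorsal margin median was 0.99 from means of log2 values and 0.31 without p1, whose 1 cell is the highest dorsal margin cell.

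Genes past 2-fold changed sign as follows. With 10 cells a side sox2 stood at -0.91, and with 20 a side mespab at -1.01. Ranking within batches gave hadhaa -0.48, eomesa -0.04, aplnrb 1.17, dkk1b 3.39 and bmp7a -0.55. Ranking by tbxta gave si:dkey-261m9.13 -0.12, si:dkey-23a13.15 -0.18, gatad1 -0.06, 1 other predicted gene -0.01, sox2 -1.33, eomesa -0.83, aplnrb 1.63, dkk1b 4.16 and bmp7a -0.81. From means of log2 values aplnrb stood at 0.09. Without p2, hadhaa stood at -0.14, sox2 -1.19, wnt8a -1.93, mespab -0.33, eomesa -0.42 and bmp7a -0.44. Without p3, taf8 stood at 0.36, foxi1 2.07, aplnrb 1.73, anxa1a 0.51, mdm2 0.16, cdkn1a 1.81 and foxo3b 1.23. In p3 alone, sox2 stood at -1.42, wnt8a -1.96, mespab -0.49, eomesa -0.48, gsc -0.84, chrd -3.96, admp -1.11, bmp7a -0.12, foxd5 -0.15 and cdh2 -0.04. Without the 2 cells highest in phlda3, anxa1a stood at 0.92, mdm2 0.23, casp8 0.37 and foxo3b 1.39. The causes were not tested. Of 55 list members at least 2-fold apart, named or not, 7 changed sign when ranked within batches and 12 in p3 alone.

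Comparisons in p3 alone and without single cells, and a rescaling to the mean of the remaining sums, were chosen after seeing the data. The last gave 6907 compared genes, with both counts within 1.5-fold. No paired analysis was possible because no label pairs a cell of one set with a cell of the other; library batch was matched by equal numbers of cells only. With 15 cells a set, of which few hold most dorsal and Nodal signal, and unknown depth, a gene listed at 0 may have been missed.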

Other observations

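The cells with the most mesendoderm signal were in neither ranked set. Among the 17 wild-type cells of middle tbx16, 1 cell of p3 had 633.18 FPKM sox32, a Sox factor of endoderm, with 297.44 FPKM msgn1, a paraxial mesoderm gene, and 388.33 FPKM dkk1b. A second cell of p3 had 297.39 FPKM msgn1, 239.11 FPKM mespab and 208.73 FPKM eve1, but 15.45 FPKM sox32. msgn1 was detected in these 2 cells of the 17. A cell of p4 had 447.32 FPKM gsc, 410.13 FPKM foxa3, 340.45 FPKM chrd and 113.76 FPKM ndr2, with no msgn1. This p4 cell and the p3 cell with 633.18 FPKM sox32 are in the within-batch high set. They are its 2 cells with the most Nodal target signal. The second p3 cell is in no set. In the cells highest in tbx16 the top msgn1 value was 5.01 FPKM and the top sox32 value 17.5 FPKM, and in the lowest 0 and 6.74 FPKM. These cells were picked out after their values were seen, and whether any is a doublet was not tested.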
